A study of Homo sapiens with 6 samples.

Results

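The proteasome genes described here are the 50 rows, of 61860 in the deposited expression table, whose symbols name a subunit (PSMA, PSMB, PSMC and PSMD families), an activator (PSME1 to PSME4), an inhibitor (PSMF1) or an assembly chaperone (PSMG family, POMP) of the proteasome, or the ubiquitin receptor ADRM1. They were chosen by symbol alone, without use of expression values, and 47 of the 50 had enough counts to be tested. RNA sequencing compared 3 libraries of insulin-resistant cells treated for 24 h with 500 ng/mL of Oligonol (IR+Oligonol) with 3 libraries of insulin-resistant cells not given it (IR control). Oligonol is a preparation of low-molecular-weight polyphenols from lychee fruit. All 6 libraries came from SH-SY5Y, a human neuroblastoma line, after retinoic acid had turned the cells neuron-like and 24 h in insulin at 100 nM together with D-glucose at 30 mM had made them insulin resistant. Cells without insulin resistance were not analysed here, and the sources used here give neither the order of the treatments nor whether replicates were separate cultures. The p-values therefore measure the spread between these libraries, which may be technical.

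The proteasome degrades proteins tagged with ubiquitin. Its barrel-shaped core particle is built of rings of alpha subunits, which gate the entry, and rings of beta subunits, among them the proteolytic PSMB5, PSMB6 and PSMB7. The regulatory particle that caps the core holds a ring of ATPases (PSMC family), which unfold and thread the substrate, and non-ATPase subunits (PSMD family and ADRM1), which bind ubiquitin, remove it and hold the lid together. In neurons the proteasome is known for its part in synaptic protein turnover and in clearing misfolded proteins.

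Estimated counts summed to between 19457923 and 20912945 in the IR+Oligonol libraries and to between 22738203 and 32209583 in the IR control libraries. Protein-coding genes took 10.0 to 12.3% of these totals in IR+Oligonol, against 6.24 to 6.83% in IR control. Estimated counts behaved as abundances per transcript length, so the shares in this paragraph are not shares of reads. Multiplied back by effective transcript length (read equivalents, a fitted estimate), protein-coding genes held 5226389 to 5483735 in IR+Oligonol and 5187271 to 6394121 in IR control. Those ranges overlapped. The 50 proteasome genes took 0.530, 0.550 and 0.530% of the protein-coding counts in IR+Oligonol libraries 1 to 3 and 0.5003, 0.528 and 0.538% in IR control libraries 1 to 3, and these shares overlapped. They rested on 21902 to 25366 read equivalents per library in IR+Oligonol and 22809 to 32897 in IR control. Of 12 noradrenergic markers of neuroblastoma 11 were tested. Their summed level was 168 to 227 CPM in IR+Oligonol and 254 to 305 CPM in IR control. Of the 11, 2 fell (CHGA and GATA2) and none rose, beside 23.0 and 26.0% of all tested genes. Their log2 fold changes were positive for 3 and negative for 8 (median -0.35). With a trend with base composition removed (described below), none was called and the median was 0.29. TH was near 0 in all libraries. The 7 mesenchymal markers summed to 26.6 to 28.6 CPM in IR+Oligonol and 30.2 to 47.2 CPM in IR control, and none of the 3 tested was called. The 4 blood markers summed to 0.411 to 0.745 CPM in IR+Oligonol and 0.263 to 1.23 CPM in IR control, with HBB and CD3E at or near 0, and the epithelial EPCAM and KRT8 to 0.334 to 0.684 CPM in IR+Oligonol and 0.467 to 0.666 CPM in IR control. The part of the protein-coding share and of these markers in the results was not tested.

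The promoters of 4 members are shown because PSMD12 and PSMD8 had the highest and the lowest fold change among the subunits of the regulatory particle, while PSMC5 and PSMD9 are 2 of the 3 members, with PSMA7, called both before and after a trend with base composition was removed. The sequences are RefSeq's (GRCh38.p14), from 250 bases before to 50 bases after the annotated start, 5′ to 3′ on the gene's strand. PSMD12 lies at chr17:67366528-67366827 (minus strand), PSMD8 at chr19:38374321-38374620 (plus), PSMC5 at chr17:63827181-63827480 (plus) and PSMD9 at chr12:121888540-121888839 (plus). Capitals mark matches, on either strand, to TGACNNNGC (the core of the antioxidant response element, bound by the proteasome regulator NFE2L1), CCAAT (the NF-Y box) and CCGGAAG (an ETS-family site).
PSMD12: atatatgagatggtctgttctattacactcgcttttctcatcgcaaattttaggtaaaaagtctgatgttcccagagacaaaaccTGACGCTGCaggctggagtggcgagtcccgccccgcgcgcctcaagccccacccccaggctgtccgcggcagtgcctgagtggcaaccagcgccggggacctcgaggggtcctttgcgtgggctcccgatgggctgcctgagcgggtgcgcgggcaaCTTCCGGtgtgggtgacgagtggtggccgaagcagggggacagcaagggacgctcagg
PSMD8: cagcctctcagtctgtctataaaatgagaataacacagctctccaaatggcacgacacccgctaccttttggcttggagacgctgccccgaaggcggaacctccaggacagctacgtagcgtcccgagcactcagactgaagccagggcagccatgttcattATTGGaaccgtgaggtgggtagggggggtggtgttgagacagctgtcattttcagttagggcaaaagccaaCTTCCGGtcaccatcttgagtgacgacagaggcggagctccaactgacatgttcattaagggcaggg
PSMC5: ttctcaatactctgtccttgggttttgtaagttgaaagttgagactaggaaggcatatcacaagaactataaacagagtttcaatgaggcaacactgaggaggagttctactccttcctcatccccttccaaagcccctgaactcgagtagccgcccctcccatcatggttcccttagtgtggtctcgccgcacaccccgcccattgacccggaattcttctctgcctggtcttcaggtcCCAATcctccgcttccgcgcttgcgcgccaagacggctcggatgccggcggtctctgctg
PSMD9: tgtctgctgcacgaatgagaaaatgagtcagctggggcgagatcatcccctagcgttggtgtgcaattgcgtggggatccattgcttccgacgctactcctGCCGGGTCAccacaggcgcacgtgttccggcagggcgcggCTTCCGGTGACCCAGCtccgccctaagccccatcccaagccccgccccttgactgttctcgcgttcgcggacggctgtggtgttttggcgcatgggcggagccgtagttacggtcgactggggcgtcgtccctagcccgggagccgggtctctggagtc
In PSMD9 the ETS match and a TGACNNNGC match adjoin without overlapping, so they read as 1 run of capitals. Promoters of 44 of the 50 members were matched by symbol. Of these, 14 (31.8%) held TGACNNNGC, against 13.3% of all 35116 promoters in the table, and 14 (31.8%) held CCGGAAG, against 10.3%. CCAAT was present in 20 (45.5%), against 34.6%. These are letter matches in a window and not measured binding.

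Proteasome transcripts did not move as 1 group. Relative to IR control, 9 members rose and 11 fell in IR+Oligonol cells, and 27 did not pass the test (edgeR's quasi-likelihood test, Benjamini-Hochberg adjusted p under 0.05 over all 16574 tested genes, TMM scaling). The same call was made for 26.0% of all tested genes upward and 23.0% downward (27.1 and 27.5% of protein-coding genes), so both counts among the 47 members lay near the background. The median log2 fold change was -0.0036 over the members, beside 0.15 over all tested genes and 0.035 over tested protein-coding genes. All 3 IR+Oligonol libraries lay above all controls for 11 members (33.8% of all tested genes) and below them for 15 (28.8%), and the groups overlapped for 21. Of the called members with a promoter in the table, TGACNNNGC was found in 3 of the 9 that rose and 4 of the 8 that fell, and CCGGAAG in 5 of the 9 and 2 of the 8. In bulk libraries, fewer cells of a type and less RNA per cell cannot be told apart.

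**Figure D1:**
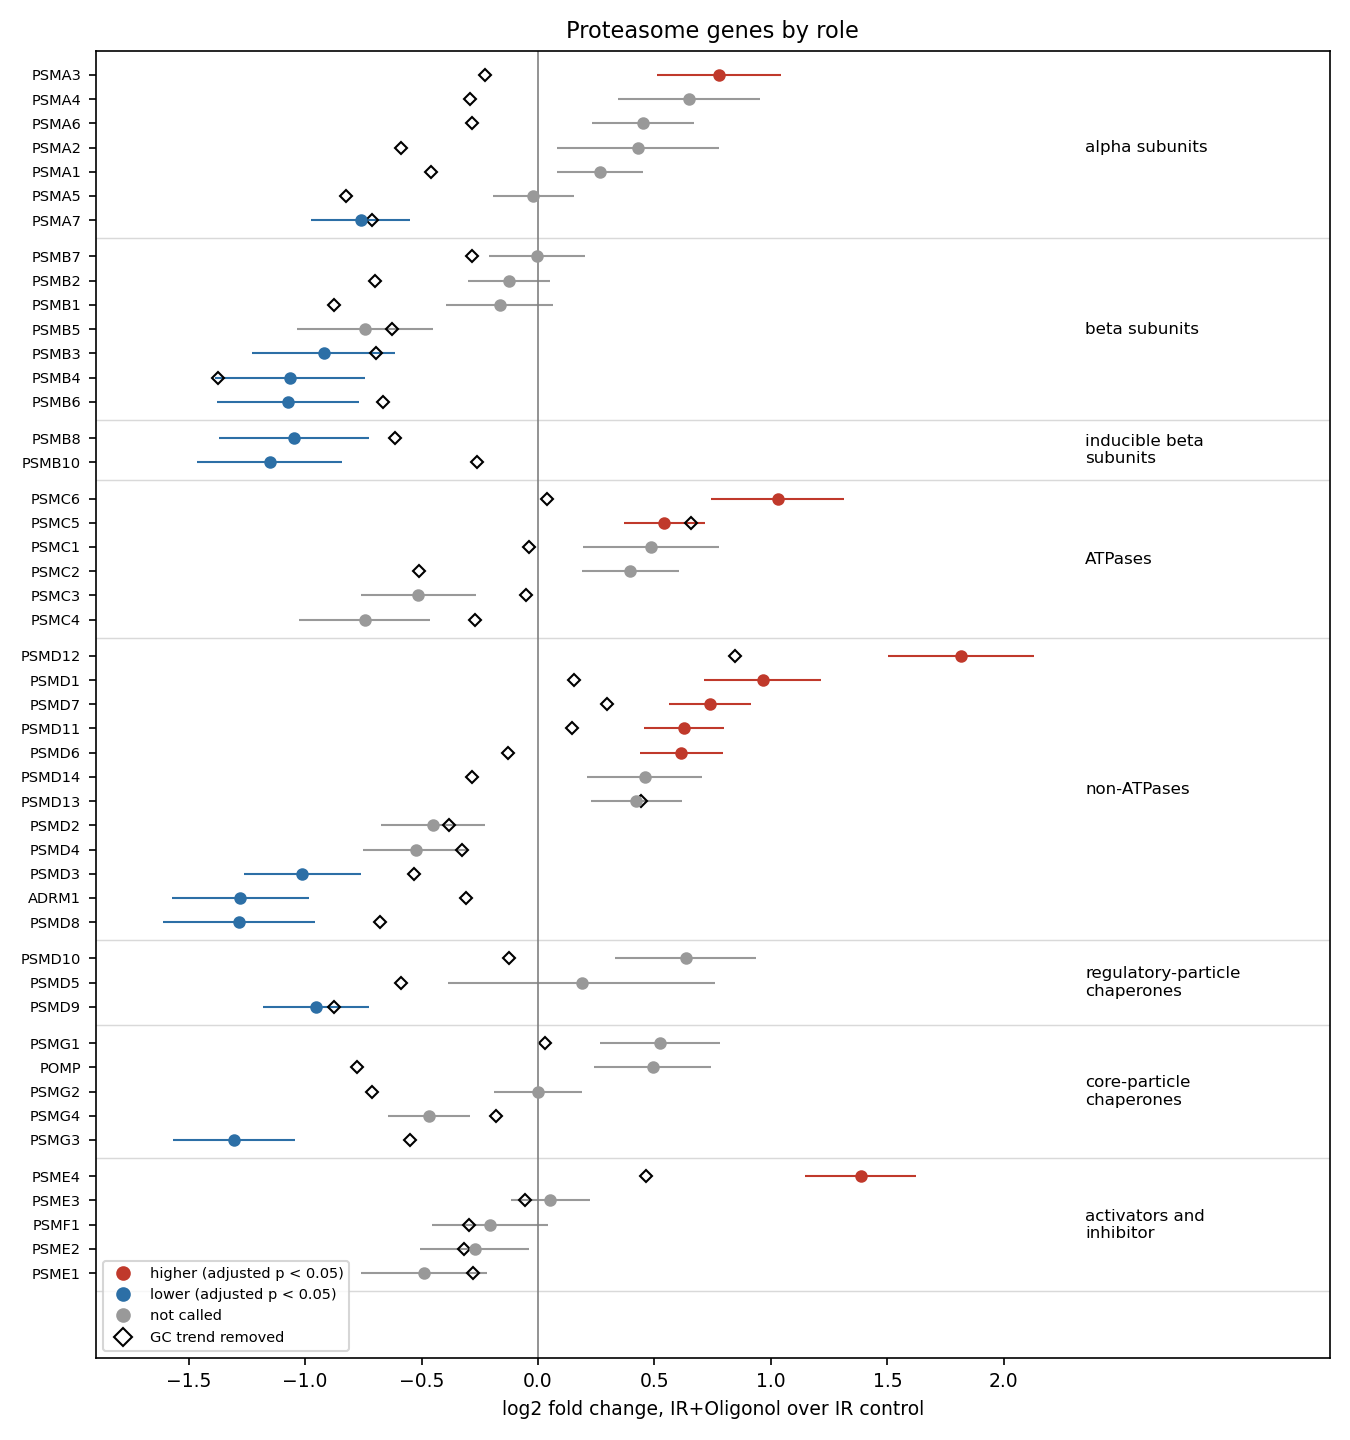
Log2 fold change (IR+Oligonol over IR control, TMM-scaled) of the 47 tested proteasome genes, 1 row per gene and grouped by role, with bars for the standard error, colour for genes past adjusted p 0.05 and open diamonds for the value with the GC trend removed. The 7 constitutive beta subunits lie at or below 0 while PSMD12 and PSME4 lie farthest above it, and with library totals alone as the scale all 47 would lie above 0, as PSMB7 does with upper-quartile factors.

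The split of rises and falls depended on the scale and on single libraries. With library totals in place of TMM factors, the median of all tested genes moved to 1.53 on the log2 scale. Of the members, 37 were then called higher and none lower by edgeR (38 and 0 at an unadjusted p under 0.05). Of all 16574 tested genes, 11293 were called higher and 37 lower. That background stands beside every count by library totals alone given below. Every direction given below is therefore relative to the bulk of tested genes. Without IR+Oligonol library 1, 3 members rose and 1 fell; without library 2, 13 and 16; without library 3, 3 and 1. Without IR control library 1, 7 rose and 13 fell; without library 2, 9 and 5; without library 3, 4 and 5. Of all 16574 tested genes, these fits called 2225, 4540, 2118, 3858, 3228 and 2973 higher, in that order. They called 1459, 4381, 1321, 3315, 2387 and 2466 lower. Without a filter on low counts 4 members rose and 2 fell, beside 2964 and 1603 of 42070 tested genes. With at least 10 counts in all libraries 19 rose and 11 fell, beside 3582 and 3114 of 11178 tested genes. PSMD12, PSME4, PSMD7 and PSMG3 kept their calls whichever library was left out.

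Fold change followed the base composition of the transcript. Across the 47 members, Spearman's rho between log2 fold change and median transcript GC content was -0.83, beside -0.85 across 11719 protein-coding genes, a description over genes that share the same 6 libraries. Among the 15 members with 34.3 to 44.2% GC, 6 rose and none fell. Among the 16 with 51.7 to 64.3% GC, 1 rose (PSMC5) and 9 fell. The 16 between them held 2 rises and 2 falls. When each library's trend of log2 CPM with GC content was removed, rho among the members was -0.13. Under that correction 1 member rose (PSMC5) and 2 fell (PSMA7 and PSMD9), beside 2.89% of 16200 tested genes upward and 2.56% downward (2.28 and 2.12% of protein-coding genes). The members' median was then -0.30, beside 0.033 over all tested genes. Of the 47, 38 had a negative log2 fold change, beside 7678 of all 16200 tested genes and 5869 of 11719 protein-coding genes. At an unadjusted edgeR p under 0.05 there were 4 positive and 16 negative members. The share of all genes at that threshold is not given here. Leaving out IR+Oligonol library 1 or 3 or IR control library 2 or 3 left no member called by edgeR with the trend removed. In these fits 13 to 16 members had an unadjusted edgeR p under 0.05. The same fits called hardly any gene, so losing a call there was not particular to the members. Of all 16200 tested genes, 0, 0, 0 and 32 were higher and 2, 0, 0 and 17 lower, in that order. Leaving out IR+Oligonol library 2 gave 1 member higher (PSMD12) and 3 lower (PSMB4, PSMB5 and PSMB6), beside 296 and 313 of all tested genes. Leaving out IR control library 1 gave none higher and 7 lower, among them PSMA7 and PSMD9, beside 639 and 666 of all tested genes. PSMC5 was called in none of these 6 fits. Removing the trend also removes any real change that runs along GC content, and its part in the calls was not tested.

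**Figure D2:**
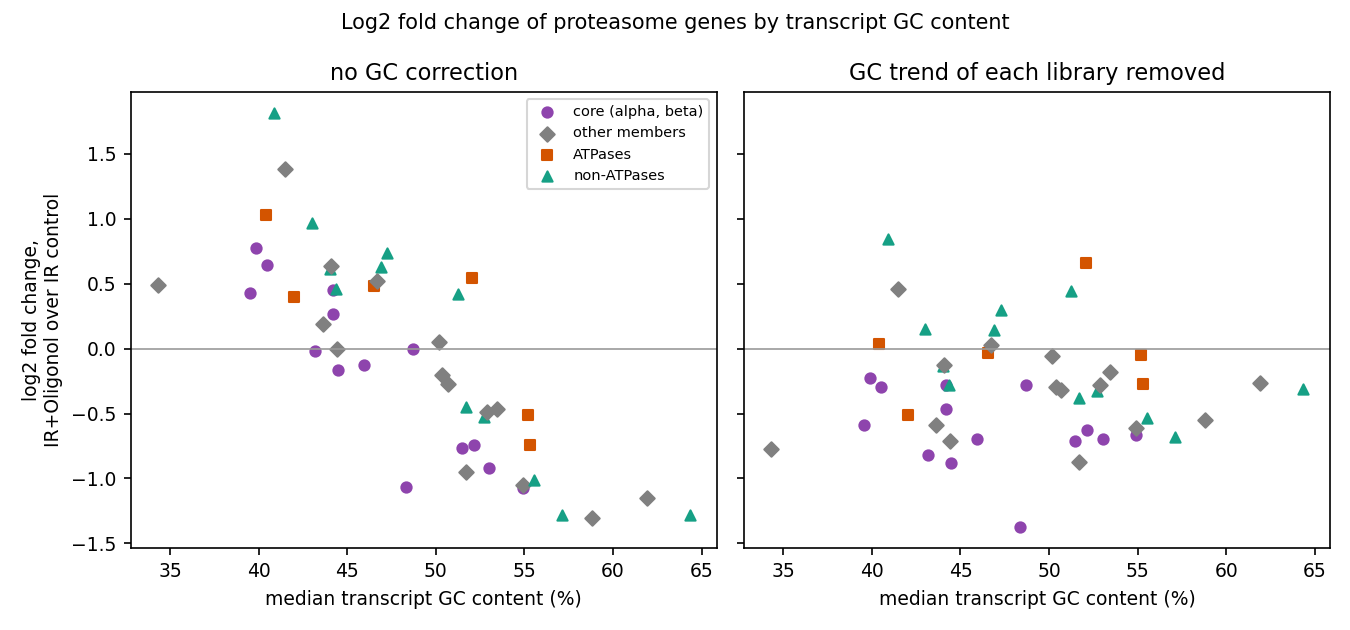
Log2 fold change of each of the 47 tested members (IR+Oligonol over IR control, TMM-scaled) against median transcript GC content in percent, without correction on the left and with each library's GC trend removed on the right. On the left the points fall from above 0 at low GC to below 0 at high GC (rho -0.83), and on the right the 14 core subunits all lie below 0; with library totals alone as the scale all uncorrected values would be above 0.

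Among the alpha subunits, which form the outer rings of the core, 1 of 7 tested members rose and 1 fell on the TMM scale, with a median log2 fold change of 0.43; by library totals alone all 7 rose. PSMA3 had 4.83, 3.78 and 4.88 CPM in the IR+Oligonol libraries, against 3.23, 3.01 and 1.63 CPM in the IR control libraries. Every IR+Oligonol library lay above every control, and PSMA3 rose 1.71-fold (log2 fold change 0.78, SE 0.27, adjusted p = 0.0416). It lost this call with RLE size factors and in 4 leave-outs (adjusted p 0.106, 0.114, 0.0658 and 0.0904, without IR+Oligonol libraries 1 and 3 and IR control libraries 2 and 3 in turn), and its direction turned once the GC trend was removed (log2 -0.23). PSMA7 (ENSG00000101182, chr20:62136733-62143440, minus strand, GRCh38.p13), whose subunit sits in the same ring, had 11.3, 11.96 and 11.4 CPM in the IR+Oligonol libraries, against 16.4, 18.5 and 23.9 CPM in the IR control libraries. The groups were far apart and the IR+Oligonol values close together, and PSMA7 fell to 0.589 of the control level (log2 fold change -0.76, SE 0.21, adjusted p = 0.0208). PSMA7 was still lower with the GC trend removed (log2 -0.71, SE 0.14, adjusted p = 0.0418). Among the leave-outs that call was kept only without IR control library 1 (adjusted p = 0.0292). The other leave-outs gave adjusted p from 0.0651 to 0.1565, and a replicate block gave 0.0884. Several of those fits called hardly any gene, as given above. The uncorrected call was lost in 4 leave-outs (adjusted p 0.0734, 0.0797, 0.0529 and 0.0695, without IR+Oligonol libraries 1 and 3 and IR control libraries 2 and 3 in turn). The other 5 tested alpha subunits overlapped between groups, from log2 -0.020 for PSMA5 to 0.65 for PSMA4. PSMA8, known as the testis form of the alpha ring, was listed at 0 in 5 libraries and was not tested.

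The constitutive beta subunits, which hold the proteolytic sites, were the role whose values leaned lowest among the constitutive subunits: 3 of 7 fell and none rose on the TMM scale, with a median of -0.74, whereas by library totals alone 5 of the 7 rose. PSMB6, the caspase-like subunit, had 8.77, 18.6 and 10.7 CPM in the IR+Oligonol libraries, against 24.3, 28.7 and 27.1 CPM in the IR control libraries. All IR+Oligonol values lay below all controls, with library 2 the highest of the 3, and PSMB6 fell (log2 fold change -1.07, SE 0.30, adjusted p = 0.0220). PSMB5, the chymotrypsin-like subunit, had 15.3, 28.5 and 16.4 CPM in the IR+Oligonol libraries, against 29.4, 34.6 and 36.7 CPM in the IR control libraries. Its groups did not overlap, but library 2 came close to the lowest control and the test was missed (log2 fold change -0.74, SE 0.29, adjusted p = 0.0638). It was called lower with a replicate block (adjusted p = 0.039), with DESeq2 (0.0172), with protein-coding genes alone (0.0326) and without IR+Oligonol library 2 (0.00358). PSMB7, the trypsin-like subunit, had 9.28, 12.2 and 10.3 CPM in the IR+Oligonol libraries, against 9.62, 9.66 and 12.6 CPM in the IR control libraries, a full overlap with a log2 fold change of -0.0036 (SE 0.21, adjusted p = 0.990). So of the 3 proteolytic subunits, PSMB6 passed the test in the TMM fit of all 6 libraries, and PSMB5 passed it under those 4 changes.

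The structural beta subunits PSMB4 and PSMB3 also fell. PSMB4, the most abundant of the 47 on this per-length scale in all 6 libraries, had 26.8, 45.1 and 31.4 CPM in the IR+Oligonol libraries, against 51.3, 70.2 and 94.5 CPM in the IR control libraries. Its IR+Oligonol values were all below the controls (log2 fold change -1.06, SE 0.32, adjusted p = 0.0274), and it had the lowest value of any member with the GC trend removed (log2 -1.38, adjusted p = 0.0523). PSMB3 averaged 19.8 ± 5.83 CPM in IR+Oligonol and 37.4 ± 9.95 CPM in IR control (SD, n = 3 each; log2 fold change -0.92, SE 0.31, adjusted p = 0.0381). PSMB6 lost its call in 4 leave-outs (adjusted p 0.0775, 0.0836, 0.0643 and 0.0554, without IR+Oligonol libraries 1 and 3 and IR control libraries 2 and 3 in turn), as PSMB4 and PSMB3 did for the same 4 libraries, with adjusted p up to 0.0989 and 0.131. PSMB1 and PSMB2 overlapped between groups (log2 -0.17 and -0.13).

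Inducible beta subunits replace the constitutive proteolytic ones in the immunoproteasome, which interferon is known to induce. Both that could be tested fell on the TMM scale, and neither was called by library totals alone. PSMB10, which takes the place of PSMB7, had 2.86, 6.99 and 4.42 CPM in the IR+Oligonol libraries, against 9.58, 10.2 and 11.7 CPM in the IR control libraries. The groups did not overlap (log2 fold change -1.15, SE 0.31, adjusted p = 0.0193). With the GC trend removed they overlapped (log2 -0.26, adjusted p = 0.408). PSMB8, which takes the place of PSMB5, had 0.496, 0.604 and 0.309 CPM in the IR+Oligonol libraries, against 0.827, 1.08 and 1.08 CPM in the IR control libraries. Its levels were low throughout (40, 43 and 24 read equivalents in IR+Oligonol, against 51, 63 and 68 in IR control), and the fall (log2 fold change -1.05, SE 0.32, adjusted p = 0.0290) was lost with DESeq2 (adjusted p = 0.0665). Leave-outs ended the call for PSMB10 (adjusted p 0.0541, 0.0651 and 0.0553, without IR+Oligonol libraries 1 and 3 and IR control library 3 in turn) and for PSMB8 (adjusted p 0.0807, 0.105, 0.0775 and 0.0658, without IR+Oligonol libraries 1 and 3 and IR control libraries 2 and 3 in turn). PSMB9, which takes the place of PSMB6, was too low to test, with 3.98, 6.43 and 5.70 estimated counts in the IR+Oligonol libraries and 3.23, 1.89 and 4.36 in the IR control libraries. PSMB11, known from the thymus, was listed at 0 in all 6. The spans of PSMB8, PSMB9 and the antisense gene PSMB8-AS1 overlap on chromosome 6, and whether counting used the strand is not stated.

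Of the 6 ATPases that form the motor ring of the regulatory particle, 2 rose and none fell on the TMM scale, with a median log2 fold change of 0.44, and by library totals alone all 6 rose, while DESeq2 called 2 higher and 2 lower. PSMC6 had 4.65, 2.88 and 4.40 CPM in the IR+Oligonol libraries, against 2.41, 2.17 and 1.27 CPM in the IR control libraries. The lowest IR+Oligonol value, in library 2, lay above the highest control, and the gene rose 2.04-fold (log2 fold change 1.03, SE 0.29, adjusted p = 0.0208). Its log2 fold change without the GC trend was 0.039. PSMC5 (ENSG00000087191, chr17:63827152-63832026, plus strand, GRCh38.p13) had 8.42, 8.40 and 10.1 CPM in the IR+Oligonol libraries, against 6.43, 6.43 and 5.63 CPM in the IR control libraries. This smaller rise (log2 fold change 0.54, SE 0.17, adjusted p = 0.0336) was as large with the GC trend removed (log2 0.66, SE 0.14, adjusted p = 0.0485), and PSMC5 was the 1 member called higher in both fits. Its uncorrected call was lost with RLE size factors, with a replicate block (adjusted p = 0.0762) and in 5 leave-outs (adjusted p 0.0714, 0.140, 0.0588, 0.0840 and 0.106, without IR+Oligonol libraries 1 and 3 and IR control libraries 1, 2 and 3 in turn). The call with the trend removed was lost in all 6 leave-outs (adjusted p from 0.0531 to 0.168) and with a replicate block (0.118). Of all 16200 tested genes the blocked fit called none. Without IR+Oligonol library 1 or 3 or IR control library 2 or 3, at most 32 were called higher and 17 lower. For PSMC6 3 leave-outs ended the call (adjusted p 0.0666, 0.0665 and 0.0575, without IR+Oligonol libraries 1 and 3 and IR control library 3 in turn).

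The other 4 ATPases did not pass the test. PSMC4, the most abundant ATPase in all 6 libraries per length, had 11.6, 17.8 and 12.2 CPM in the IR+Oligonol libraries, against 17.7, 21.5 and 30.3 CPM in the IR control libraries. Library 2 of IR+Oligonol reached the range of the controls (log2 fold change -0.74, SE 0.28, adjusted p = 0.0574). PSMC4 was called lower with RLE factors (adjusted p = 0.0499), with protein-coding genes alone (0.0263), with DESeq2 (0.0133), without IR+Oligonol library 2 (0.0196) and without IR control library 1 (0.0418). PSMC1 and PSMC2 had positive values (log2 0.48 and 0.40) and PSMC3 a negative one (-0.51). Rows named as PSMC1 pseudogenes held estimated counts equal to 19.8% of those of PSMC1, so its level is uncertain.

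Non-ATPase subunits, the role with the most tested members, held 5 rises and 3 falls among 12 on the TMM scale. The backgrounds were 26.0 and 23.0% of all tested genes. The median log2 fold change was 0.44, and by library totals alone 9 rose and none fell. DESeq2 called 4 higher and 5 lower. Leaving out IR control library 1 gave 4 and 4, and IR+Oligonol library 1 or 3 gave 2 and 0. With the GC trend removed none was called (median -0.21). PSMD12 (ENSG00000197170, chr17:67337916-67366605, minus strand, GRCh38.p13) is a scaffold subunit of the lid. It had 3.995, 2.13 and 3.97 CPM in the IR+Oligonol libraries, against 0.894, 1.21 and 0.760 CPM in the IR control libraries. The groups were well apart, though IR+Oligonol library 2 was about midway between the others and the controls, and the values rested on 225, 107 and 221 read equivalents in IR+Oligonol, against 39, 49 and 34 in IR control. PSMD12 rose 3.52-fold, the largest change of the 47 (log2 fold change 1.82, SE 0.31, adjusted p = 0.00770). Without the GC trend the value was 0.85 (adjusted p = 0.0640), still with no overlap between groups. PSMD1, the large subunit that docks ubiquitin receptors, had 6.11, 4.66 and 5.501 CPM in the IR+Oligonol libraries, against 2.23, 3.86 and 2.30 CPM in the IR control libraries (log2 fold change 0.96, SE 0.25, adjusted p = 0.0172), again without overlap. PSMD7, the lid partner of the deubiquitinase PSMD14, averaged 4.89 ± 0.355 CPM in IR+Oligonol and 2.94 ± 0.403 CPM in IR control (SD, n = 3 each; log2 fold change 0.74, SE 0.18, adjusted p = 0.0135). The lid subunits PSMD11 and PSMD6 rose by smaller amounts (log2 0.63 and 0.61, adjusted p = 0.0202 and 0.0237). PSMD1, PSMD11 and PSMD6 lost their calls in 3, 3 and 4 leave-outs, IR+Oligonol libraries 1 and 3 among them each time, with adjusted p up to 0.0578, 0.0814 and 0.0974. PSMD6 was not called with DESeq2 or with a replicate block either, and its value was negative with the GC trend removed (log2 -0.13). With that trend removed the groups of PSMD1, PSMD7 and PSMD11 overlapped (log2 0.15, 0.30 and 0.14).

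The 3 non-ATPase subunits that fell were PSMD8, ADRM1 and PSMD3. PSMD8, a lid subunit, had 14.6, 30.0 and 16.7 CPM in the IR+Oligonol libraries, against 40.3, 57.5 and 51.5 CPM in the IR control libraries. All controls lay above all IR+Oligonol libraries, of which library 2 was the highest (log2 fold change -1.29, SE 0.33, adjusted p = 0.0159). ADRM1, a ubiquitin receptor, had 12.8, 21.6 and 12.3 CPM in the IR+Oligonol libraries, against 30.4, 42.0 and 40.7 CPM in the IR control libraries. Its groups were likewise apart (log2 fold change -1.28, SE 0.29, adjusted p = 0.0121), and with the GC trend removed they overlapped (log2 -0.31, adjusted p = 0.249). PSMD3, a lid subunit, averaged 10.0 ± 2.94 CPM in IR+Oligonol and 20.2 ± 2.21 CPM in IR control (SD, n = 3 each; log2 fold change -1.01, SE 0.25, adjusted p = 0.0150). Calls were lost for PSMD8 (adjusted p 0.0599, 0.0662 and 0.0523, without IR+Oligonol libraries 1 and 3 and IR control library 2 in turn) and ADRM1 (adjusted p 0.0506 and 0.0545, without IR+Oligonol libraries 1 and 3 in turn), and for PSMD3 without IR+Oligonol library 1 or 3 (adjusted p up to 0.0650).

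The ubiquitin receptor PSMD4 and the deubiquitinase PSMD14 did not pass the test in the TMM fit of all 6 libraries. PSMD4 had 16.8, 19.2 and 16.5 CPM in the IR+Oligonol libraries, against 20.02, 25.7 and 29.8 CPM in the IR control libraries. Its groups did not overlap (log2 fold change -0.53, SE 0.22, adjusted p = 0.0832). PSMD4 was called lower with DESeq2 (adjusted p = 0.0192), without IR+Oligonol library 2 (0.0414) and without IR control library 1 (0.0487). By library totals alone it was called higher (0.00299). PSMD14, which cuts ubiquitin off the substrate, had 5.20, 2.95 and 4.81 CPM in the IR+Oligonol libraries, against 2.78, 2.97 and 3.66 CPM in the IR control libraries. Its library 2 fell among the controls (log2 fold change 0.46, SE 0.25, adjusted p = 0.155). PSMD14 was called higher with at least 10 counts in all libraries (adjusted p = 0.0215) and without IR+Oligonol library 2 (0.0205). By library totals alone it was also called higher (0.00389), and with the GC trend removed its value was negative (log2 -0.28). The scaffold subunit PSMD2 and the lid subunit PSMD13 missed the test from opposite sides of 0 (log2 -0.45 and 0.42), each with groups that did not overlap.

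**Figure D3:**
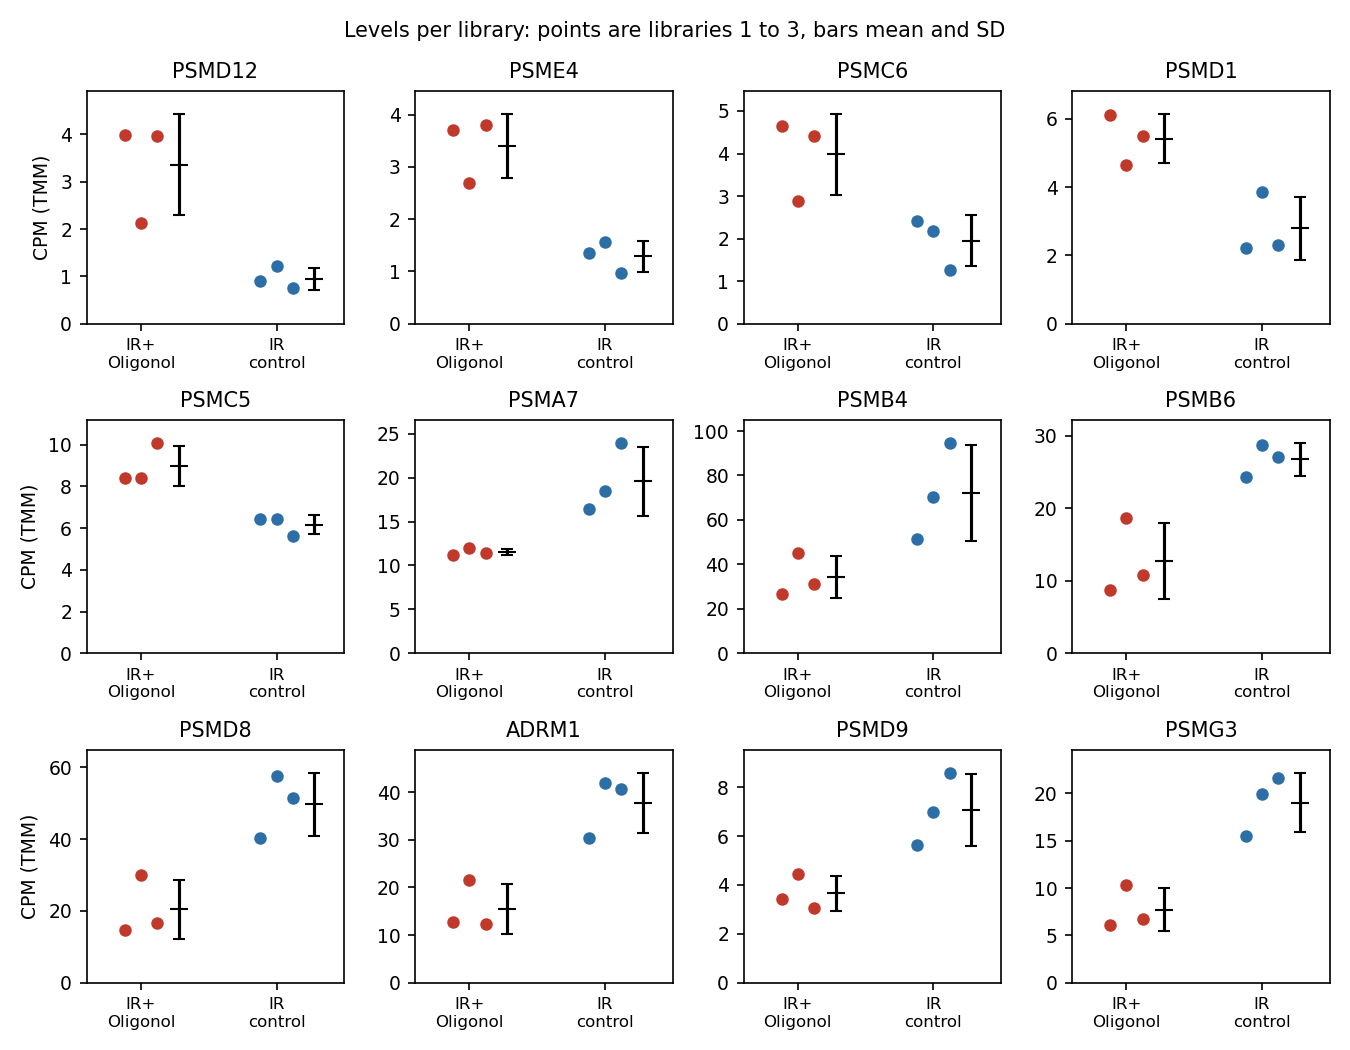
Level in each library (CPM after TMM scaling, linear axes from 0) of 12 proteasome genes, with IR+Oligonol libraries on the left, IR control libraries on the right and the group mean with its SD beside the points. PSMD12, PSME4, PSMC6, PSMD1 and PSMC5 lie higher in IR+Oligonol and PSMA7, PSMB4, PSMB6, PSMD8, ADRM1, PSMD9 and PSMG3 lower, with no overlap in any panel; the 7 lower ones have positive fold changes when library totals alone set the scale.

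Among the chaperones that assemble the base of the regulatory particle, 1 of 3 fell on the TMM scale, and by library totals alone 1 rose. PSMD9 (ENSG00000110801, chr12:121888732-121918297, plus strand, GRCh38.p13) had 3.44, 4.46 and 3.06 CPM in the IR+Oligonol libraries, against 5.62, 6.98 and 8.59 CPM in the IR control libraries. Every IR+Oligonol library lay below every control (log2 fold change -0.95, SE 0.23, adjusted p = 0.0135), and this fall was also called with the GC trend removed (log2 -0.88, SE 0.18, adjusted p = 0.0466). The uncorrected call was lost without IR+Oligonol library 1 or 3 (adjusted p 0.0536 and 0.0574). The call with the trend removed was kept, among the leave-outs, only without IR control library 1 (adjusted p = 0.0340). The other leave-outs gave adjusted p from 0.0510 to 0.162, and a replicate block gave 0.0998. Several of those fits called hardly any gene, as given above. PSMD10 (gankyrin) had 1.73, 0.912 and 1.62 CPM in the IR+Oligonol libraries, against 0.813, 1.06 and 0.868 CPM in the IR control libraries. The groups overlapped (log2 fold change 0.63, SE 0.30, adjusted p = 0.113), and rows named as PSMD10 pseudogenes held counts equal to 78.8% of those of PSMD10, so its level is uncertain. PSMD5 varied widely among the controls (0.411 to 2.18 CPM) and was not called.

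Of the 5 chaperones of core assembly, 1 fell and none rose on the TMM scale, and by library totals alone 4 rose. PSMG3 (ENSG00000157778, chr7:1567332-1571005, minus strand, GRCh38.p13), which works with PSMG4 on the alpha ring, had 6.15, 10.3 and 6.70 CPM in the IR+Oligonol libraries, against 15.5, 19.96 and 21.6 CPM in the IR control libraries. The highest IR+Oligonol value was well under the lowest control, and PSMG3 fell to 0.406 of the control level (log2 fold change -1.30, SE 0.26, adjusted p = 0.00947), a call that held in all 6 leave-outs. Its value without the GC trend was -0.55 (adjusted p = 0.0711). Its partner PSMG4 had non-overlapping groups below the controls but missed the test (log2 -0.47, adjusted p = 0.0574). PSMG1, which pairs with PSMG2 on the alpha ring, had 1.85, 2.07 and 1.92 CPM in the IR+Oligonol libraries, against 1.199, 1.89 and 0.992 CPM in the IR control libraries. IR control library 2 lay among the IR+Oligonol values (log2 fold change 0.52, SE 0.26, adjusted p = 0.122), and PSMG2 stood at log2 -0.0013. POMP, which guides beta-ring assembly, had 7.80, 7.61 and 8.35 CPM in the IR+Oligonol libraries, against 3.55, 6.85 and 6.46 CPM in the IR control libraries. All IR+Oligonol values lay above the controls without passing the test (log2 fold change 0.49, SE 0.25, adjusted p = 0.134), and with the GC trend removed the value turned to -0.78 (adjusted p = 0.197), POMP having the lowest GC content of the tested members (34.3%).

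Among the activators and the inhibitor, 1 of 5 rose and none fell on the TMM scale, and all 5 rose by library totals alone. PSME4 (PA200; ENSG00000068878, chr2:53864069-53970993, minus strand, GRCh38.p13), an activator known from chromatin, had 3.71, 2.70 and 3.81 CPM in the IR+Oligonol libraries, against 1.35, 1.56 and 0.968 CPM in the IR control libraries. The lowest IR+Oligonol library lay well above the highest control, and PSME4 rose 2.64-fold (log2 fold change 1.39, SE 0.24, adjusted p = 0.00771), a call kept in all 6 leave-outs. Its groups stayed apart with the GC trend removed (log2 0.46, adjusted p = 0.104). PSME1, which with PSME2 forms the interferon-inducible activator, had 8.90, 14.4 and 11.3 CPM in the IR+Oligonol libraries, against 11.7, 18.1 and 18.8 CPM in the IR control libraries. Its groups overlapped (log2 fold change -0.49, SE 0.27, adjusted p = 0.160), as did those of PSME2 (log2 -0.27) and of the nuclear activator PSME3 (log2 0.052). PSMF1 (PI31), first described as an inhibitor, had 7.54, 11.9 and 7.47 CPM in the IR+Oligonol libraries, against 12.3, 9.70 and 8.90 CPM in the IR control libraries. No difference was detectable (log2 fold change -0.21, SE 0.25, adjusted p = 0.516).

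Comparing the classes, 1 of 14 core subunits rose and 4 fell (median -0.073), while 7 of 18 subunits of the regulatory particle rose and 3 fell (median 0.44), against backgrounds of 26.0 and 23.0%; by library totals alone 12 of the 14 and 15 of the 18 rose. For the regulatory particle, DESeq2 called 6 higher and 7 lower, and leaving out IR control library 1 gave 5 and 5, IR control library 3 gave 3 and 3, and IR+Oligonol library 2 gave 9 and 7. With the GC trend removed, all 14 core subunits had negative values (median -0.65), and the regulatory particle had 7 positive and 11 negative ones (median -0.091). Of all 16200 tested genes 7678 were negative in that fit. The balance of the classes was taken within each library as the difference of their mean log2(CPM + 0.5), on which a library's scale largely cancels. Balances with the GC trend removed used edgeR's log2 CPM (prior count 2) instead.

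ATPases less core subunits gave -0.16, -0.42 and -0.29 in the IR+Oligonol libraries, against -0.61, -0.66 and -0.59 in the IR control libraries. The ATPases thus stood closer to the core in each IR+Oligonol library, by 0.33 on average. After removal of the GC trend they were 0.0051, -0.40 and -0.16 in IR+Oligonol, against -0.75, -0.80 and -0.76 in IR control. Non-ATPases less core subunits gave -0.042, -0.14 and -0.10 in IR+Oligonol, against -0.28, -0.31 and -0.26 in IR control. These groups did not overlap either, and with the trend removed they were 0.18, -0.094 and 0.079 in IR+Oligonol, against -0.47, -0.47 and -0.49 in IR control. ATPases less non-ATPases differed by less (-0.12, -0.28 and -0.18 in IR+Oligonol, against -0.34, -0.35 and -0.33 in IR control) and overlapped once the trend was removed. Within the core, alpha less beta subunits gave -0.95, -1.66 and -1.06 in IR+Oligonol, against -1.86, -1.79 and -2.49 in IR control, and these overlapped with the trend removed. No p-value is given for these scores, since the members were chosen as a set.

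**Figure D4:**
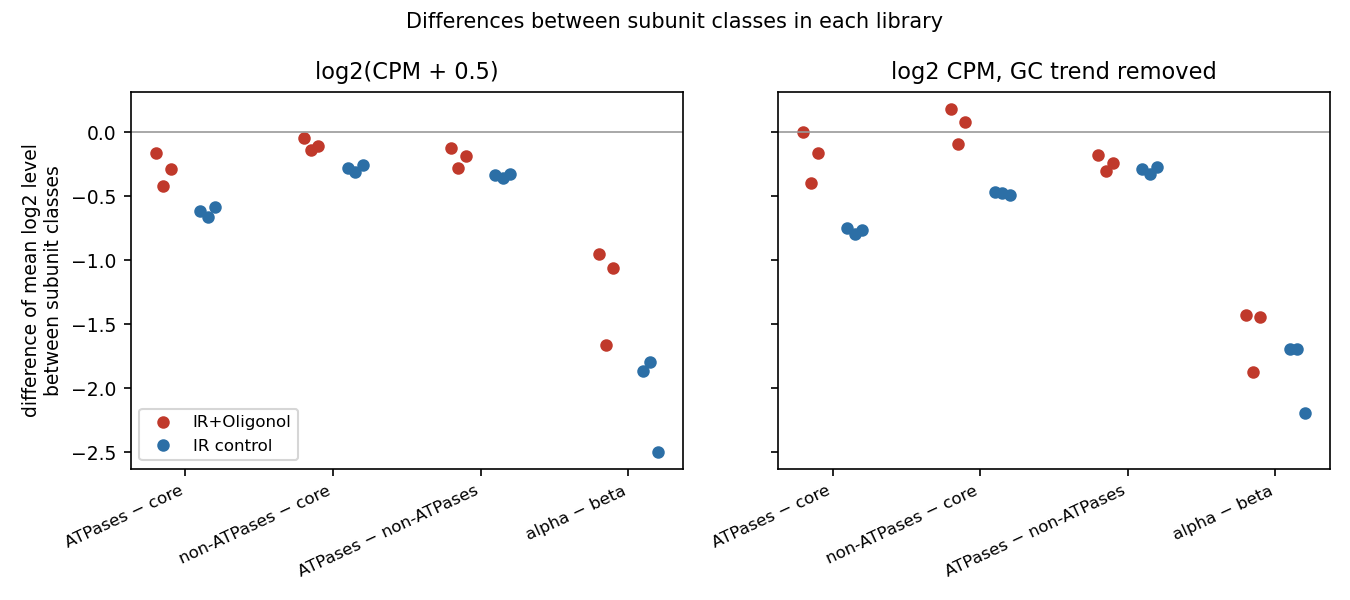
Difference between 2 subunit classes in mean log2 level in each library, IR+Oligonol left and IR control right within each pair. The left panel shows log2(CPM + 0.5) without GC correction. The right panel shows edgeR's log2 CPM (prior count 2) with the GC trend removed. ATPases less core and non-ATPases less core lie higher in all 3 IR+Oligonol libraries on both panels, whereas alpha less beta and ATPases less non-ATPases overlap on the right.

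Levels of the 32 constitutive subunits of core and regulatory particle were more even in IR+Oligonol cells. The standard deviation of their log2(CPM + 0.5) was 0.74, 1.16 and 0.80 in IR+Oligonol libraries 1 to 3, against 1.45, 1.49 and 1.71 in IR control libraries 1 to 3. The highest subunit, PSMB4, exceeded the lowest by 11.8-, 21.2- and 11.1-fold in IR+Oligonol, against 57.4-, 58.0- and 124-fold in IR control. In all 3 controls the lowest subunit was PSMD12. The same direction was seen over all 11728 tested protein-coding genes, whose standard deviation was 1.25, 1.38 and 1.27 in IR+Oligonol and 1.52, 1.58 and 1.66 in IR control, so narrowing was not particular to the proteasome by these values. With the GC trend removed the subunits' spread was 1.10, 1.32 and 1.12 in IR+Oligonol and 1.34, 1.41 and 1.51 in IR control. These used edgeR's log2 CPM (prior count 2), so they do not compare directly with the uncorrected values. On that measure the tested protein-coding genes had 1.53, 1.62 and 1.555 in IR+Oligonol and 1.63, 1.71 and 1.75 in IR control. Low-GC members were low in IR control: mean level and GC content ran together across the 47 members (Spearman's rho 0.70), and log2 fold change ran against control level (rho -0.75), in which the control libraries enter both measures.

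**Figure D5:**
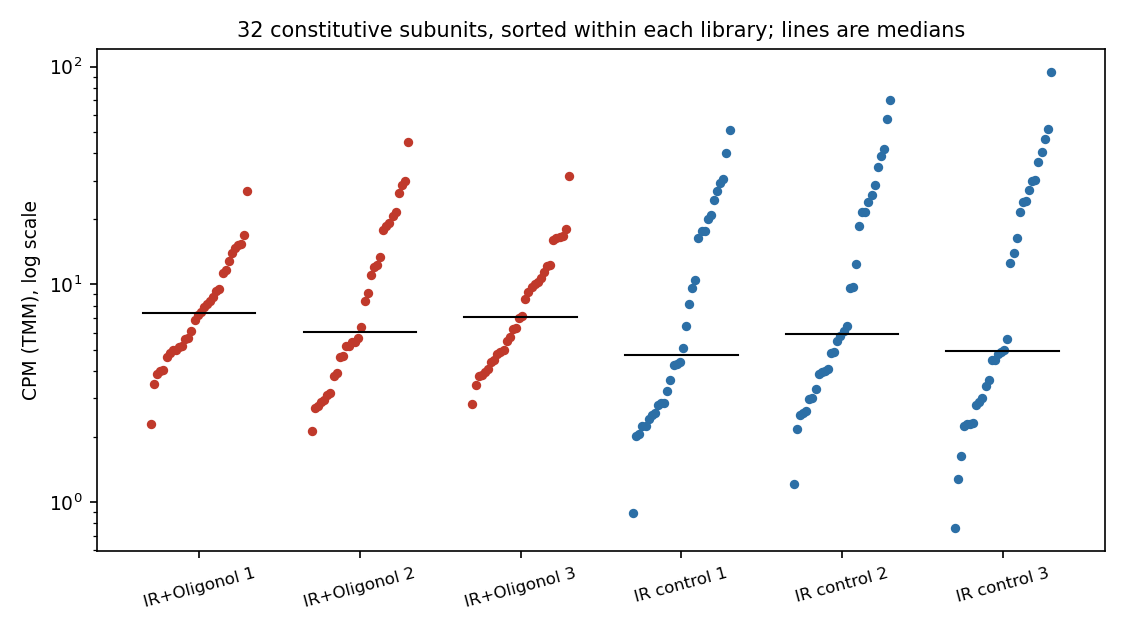
Level of each of the 32 constitutive core and regulatory-particle subunits in each library (TMM-scaled CPM on a log axis), sorted within the library, with lines at the medians and IR+Oligonol libraries left of IR control libraries. The points span less in the IR+Oligonol libraries (standard deviation of log2(CPM + 0.5) 0.74 to 1.16) than in the IR control libraries (1.45 to 1.71).

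Regulators and cofactors of the proteasome were called more often upward than downward. Of 18 such genes, 9 rose and 1 fell on the TMM scale (median log2 fold change 0.65, beside 0.15 over all tested genes and backgrounds of 26.0 and 23.0%), and with the GC trend removed 1 rose and none fell. ZFAND5, which stimulates the proteasome, had 4.98, 5.26 and 5.10 CPM in the IR+Oligonol libraries, against 2.45, 2.74 and 2.33 CPM in the IR control libraries (log2 fold change 1.03, SE 0.16, adjusted p = 0.00688). AKIRIN2, needed to import proteasomes into the nucleus, had 2.71, 2.40 and 2.69 CPM in the IR+Oligonol libraries, against 1.36, 1.16 and 1.09 CPM in the IR control libraries. The groups were far apart (log2 fold change 1.09, SE 0.19, adjusted p = 0.00761), and AKIRIN2 was the gene of this list also called with the trend removed (log2 0.80, adjusted p = 0.0367). NFE2L1, the transcription factor that induces proteasome genes when proteolysis is short, was singled out after its values were seen. It had 10.1, 13.2 and 11.5 CPM in the IR+Oligonol libraries, against 12.4, 12.96 and 18.1 CPM in the IR control libraries, with overlapping groups (log2 fold change -0.32, SE 0.22, adjusted p = 0.264).

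Of 12 shuttle factors and segregase genes 11 were tested, and 3 rose and 2 fell (median 0.39). RAD23B, which carries ubiquitinated proteins to the proteasome, rose (log2 1.08, adjusted p = 0.00761), as did FAF1, a cofactor of the segregase VCP (log2 0.97, adjusted p = 0.00999), and none of the list was called with the trend removed. In the list for MHC class I antigen processing, which shares the immunoproteasome's function, 8 of 9 genes were tested, 1 rose and 2 fell, and none was called with the trend removed. The peptide transporter TAP1 had 0.351, 0.490 and 0.506 CPM in the IR+Oligonol libraries, against 0.834, 1.06 and 1.26 CPM in the IR control libraries. It fell (log2 fold change -1.20, SE 0.30, adjusted p = 0.0155), and its groups did not overlap.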

How the data were processed

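RNA was measured by stranded total RNA sequencing in 6 libraries, 3 per group. FastQC, edgeR, kallisto 0.46.1 and the build GRCh38.p13 stand in the submitters' processing notes, which give no role or order. The authors deposited an estimated count and a scaled signal per gene and library, per the file headers. The signal equalled the count multiplied by a constant for each library and was not used. Estimated counts behaved as abundances per transcript length, so levels of different genes compare per length. Read equivalents are counts multiplied back by effective transcript length, a fitted estimate.

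Estimated counts were rounded, kept by filterByExpr, scaled by TMM and tested 2-sided with the robust quasi-likelihood test of edgeR 4.0.16 in R 4.3.3. P-values were adjusted by Benjamini-Hochberg over all tested genes (threshold 0.05). CPM are after TMM scaling, and SE is the standard error implied by the test. Transcript GC content and length came from GENCODE 29 (58308 identifiers matched), as medians over transcripts. Gene coordinates are those of the deposited table. The GC correction was a natural spline (5 degrees of freedom) fitted per library over protein-coding genes, used as an offset in the model. Alternatives were RLE, upper-quartile and library-total scaling, protein-coding genes only, other filters, DESeq2 1.42.0, limma-voom (limma 3.58.1), a replicate block, and each library left out.

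The genes named with values per library were, in each role, the tested members with the highest and lowest fold change, the proteolytic subunits, ADRM1, PSMD4, PSMD14, POMP, PSME4 and PSMF1, and members called with and without GC correction, and, of each further list, at most the 2 genes with the smallest p. Some genes that this rule named are not reported here. PSMB4 and PSMD1 were added after their values were seen, as were the group means given for other called members. Members, lists and tests were chosen with earlier results of these data known.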

Additional observations from a re-analysis of the deposited data

How the results depend on the processing

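Of the 9 rises and 11 falls among the members, RLE factors gave 7 and 13, upper-quartile factors 9 and 11, DESeq2 8 and 15, limma-voom 9 and 12, and protein-coding genes alone 13 and 13. Larger moves came with library totals alone (37 and 0, median log2 fold change 1.37), no filter (4 and 2), at least 10 counts in all libraries (19 and 11, median 0.24), a threshold of 0.01 (2 and 1), the GC trend removed (1 and 2, median -0.30) and the GC trend removed with a replicate block (0 and 0 with edgeR, with 4 and 17 at an unadjusted p under 0.05, median -0.30). The blocked fit with the trend removed called 0 of all 16200 tested genes higher and 0 lower. Leaving out single libraries gave 3 to 13 rises and 1 to 16 falls. With the GC trend removed as well, chosen after the data were seen, the range was 0 to 1 rises and 0 to 7 falls, and the median -0.42 to -0.27 (-0.35 without IR control library 3). The replicate block alone gave 7 and 12. It ended the calls of PSMC5 and PSMD6 and added PSMB5, but deviations of same-numbered libraries correlated at 0.087, -0.0087 and -0.15, and not every library correlated best with its own number, so the numbers were not taken as pairs.

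By library totals alone all 47 tested members had positive values. Among the genes named by rule this turned 14: PSMD8 (0.034), PSMG3 (0.047), ADRM1 (0.062), PSMB10 (0.16), PSMB6 (0.23), PSMB8 (0.32), PSMD9 (0.43), PSMB5 (0.58), PSMC4 (0.63), PSMA7 (0.64), PSMD4 (0.87), PSME1 (0.88), PSMF1 (1.10) and PSMB7 (1.37). Removing the GC trend turned 13 members negative, PSMD6 (-0.13), PSMA4 (-0.29), PSMC1 (-0.037) and PSMC2 (-0.51) among them, and of the genes named by rule 4, without and with the block: POMP (-0.78 and -0.72), PSMA3 (-0.23 and -0.21), PSMD14 (-0.28 and -0.29) and PSMD10 (-0.12 and -0.15). PSMB7, near 0, was also positive with upper-quartile factors (0.087), protein-coding genes alone (0.048), no filter (0.0017), the 10-count filter (0.24) and limma-voom (0.0071), and lay between -0.13 and 0.14 in the leave-outs. PSMF1 was 0.028 with the 10-count filter. The cause of these moves was not tested.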

Other observations

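Rows named as pseudogene copies of members were present for 17 of the 50 genes, and for 2 of them, PSMD10 and PSMC1, these rows held estimated counts equal to 5% or more of the gene's own. Spans of 31 members overlapped another row of the deposited table. None of the members with a total above 100 estimated counts had values identical to those of another row.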
